A study of Homo sapiens with 12 samples.

Results

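The BCL2 family decides whether the outer mitochondrial membrane stays closed or is opened during apoptosis. Effector proteins such as BAX and BAK1 form the pores through which cytochrome c leaves the mitochondrion, anti-apoptotic members such as BCL2, BCL2L1 (BCL-XL), MCL1 and BCL2A1 hold them in check, and BH3-only proteins bind the anti-apoptotic members or activate the effectors directly. In acute myeloid leukemia the family is a drug target, since many leukemic blasts depend on BCL2 or MCL1 and the BCL2 inhibitor venetoclax is used against the disease.

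The 10 genes described here were taken by name from a table of 34626 genes. They comprise 4 anti-apoptotic members (BCL2, MCL1, BCL2L1 and BCL2A1), the effectors BAX and BAK1, and 4 BH3-only members (BCL2L11, which encodes BIM, BBC3, which encodes PUMA, PMAIP1, which encodes NOXA, and BID). RNA was sequenced in 2 human leukemia cell lines, each with a short hairpin RNA against CYTH4 (shCYTH4) or a control hairpin (shControl). The groups were MV4-11 shCYTH4, MV4-11 shControl, THP-1 shCYTH4 and THP-1 shControl, with 3 libraries each and no drug or second alteration in the labels. Both lines carry a rearranged KMT2A gene, MV4-11 also carries an internal tandem duplication in FLT3, and THP-1 is monocytic. CYTH4 encodes a cytohesin, an exchange factor for ARF GTPases. The sources used here do not give the number of hairpins or clones or the time after the hairpin was introduced. Nor do the labels state if replicates are separate cultures, and p-values thus measure the spread between these libraries, which may be technical.

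Each library held 71730093 to 77782719 estimated counts. Levels are given as FPKM, fragments scaled to transcript length and library size, so that genes of different length can be set side by side. Differences are log2 ratios from edgeR's quasi-likelihood test on the counts, with Benjamini-Hochberg adjustment over the 12350 genes with 1 FPKM or more in 3 or more of the libraries. A gene is called at an adjusted p under 0.05. Of the 10 members, 9 passed the filter and BCL2A1 did not. Some libraries stood apart from their group: the SD of log2 differences over genes was 0.5997 and 0.617 between THP-1 shCYTH4 replicate 3 and replicates 1 and 2, against 0.384 between those 2. It was 0.588 to 0.607 for MV4-11 shCYTH4 replicate 1, against 0.401 between replicates 2 and 3, and 0.621 for MV4-11 shControl replicate 1, against 0.460. No member was called in MV4-11 when any 1 of the 12 libraries was left out, and values without each of these 3 libraries are given below.

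The targeted gene, CYTH4, was called lower in THP-1 and was not called in MV4-11, although the difference between the lines was not called either (0.90 on the log2 scale, edgeR adjusted p = 0.126). It stood at 15.5, 20.7 and 22.3 FPKM in MV4-11 shCYTH4, against 20.9, 16.0 and 18.1 FPKM in MV4-11 shControl, a log2 change of 0.01 (SE 0.19, edgeR adjusted p = 0.988). In THP-1 it stood at 15.7, 15.0 and 15.7 FPKM in shCYTH4 libraries, against 25.7, 32.2 and 21.0 FPKM in shControl libraries, a log2 change of -0.89 (SE 0.19, edgeR adjusted p = 0.0338). The MV4-11 groups overlapped and the THP-1 groups did not, and directions in MV4-11 are those between libraries so labelled. The THP-1 call was lost when MV4-11 shCYTH4 replicate 2 or any of 4 THP-1 libraries (shCYTH4 replicates 1 and 2, shControl replicates 1 and 2) was left out, with edgeR adjusted p between 0.0539 and 0.147. DESeq2, unlike edgeR, called the difference between the lines in the CYTH4 change (0.88 on the log2 scale, DESeq2 adjusted p = 0.0468).

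The cells are labelled as acute myeloid leukemia. Of 10 myeloid markers (CD33, MPO, LYZ and SPI1 among them), 9 averaged 1 FPKM or more in each MV4-11 group and 10 in each THP-1 group. They summed to 1480 to 1574 FPKM in MV4-11 shCYTH4, against 2080 to 2263 FPKM in MV4-11 shControl. The sum was 1183 to 1410 FPKM in THP-1 shCYTH4, against 826 to 885 FPKM in THP-1 shControl. Most of the sum is LYZ, at 1119 ± 25.5 FPKM in MV4-11 shCYTH4 and 1707 ± 129 FPKM in MV4-11 shControl, and 705 ± 49.6 FPKM in THP-1 shCYTH4 and 331 ± 53.1 FPKM in THP-1 shControl (SD, n = 3 each). SPI1, CEBPA, CD33 and ITGAM means moved as LYZ did, lower with shCYTH4 in MV4-11 and higher in THP-1. SPI1 averaged 121 FPKM in MV4-11 shCYTH4 and 149 FPKM in MV4-11 shControl. In THP-1 it averaged 145 FPKM in shCYTH4 libraries and 117 FPKM in shControl libraries. The other markers did not follow LYZ. FCGR1A averaged 45.1 FPKM in MV4-11 shCYTH4 and 33.8 FPKM in MV4-11 shControl. In THP-1 FCGR1A averaged 45.0 FPKM in shCYTH4 libraries and 67.7 FPKM in shControl libraries, and CD14 means also went against LYZ in both lines. MPO and CSF1R had lower means with shCYTH4 in both lines. CD68 had a higher mean with shCYTH4 in both lines. The part of these markers in the results below was not tested. In RNA from whole cultures, fewer cells of a type and less RNA per cell cannot be told apart. Markers of T cells (3 of 5 in the table) summed to at most 0.354 FPKM in any library, erythroid markers (5 of 5) to at most 0.656, megakaryocyte markers (3 of 5) to at most 2.66, epithelial and fibroblast markers (4 of 6) to at most 0.997, and B cell markers (4 of 5) to at most 4.62. CD3D was at 0 in every MV4-11 library and CD3E in every THP-1 library, and the erythroid gene HBB was at 0 in every MV4-11 library.

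The promoters of 5 members are shown because the hairpin comparisons turn on 4 of them, PMAIP1, BCL2, BAK1 and BID, and the comparison of the lines on BAX. Each runs 5′ to 3′ on the gene's own strand, from 250 bases before to 50 bases after the start site (RefSeq, GRCh38.p14). The RefSeq table matched 9 of the 10 members, and of 5 entries for BID the one at the gene's 5′ end in the deposited table was used. Capitals mark every match, on either strand, to the motifs named after the sequences. They lie at chr18:59899746-59900045 (plus strand) for PMAIP1, chr18:63319720-63320019 (minus) for BCL2, chr6:33580227-33580526 (minus) for BAK1, chr22:17774446-17774745 (minus) for BID and chr19:48954625-48954924 (plus) for BAX.
PMAIP1: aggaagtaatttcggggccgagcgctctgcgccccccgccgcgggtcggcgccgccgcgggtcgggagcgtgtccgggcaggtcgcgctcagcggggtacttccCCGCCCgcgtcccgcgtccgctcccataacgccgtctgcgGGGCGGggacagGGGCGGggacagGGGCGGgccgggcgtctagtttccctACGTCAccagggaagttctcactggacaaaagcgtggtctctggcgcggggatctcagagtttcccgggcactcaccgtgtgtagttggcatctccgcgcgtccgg
BCL2: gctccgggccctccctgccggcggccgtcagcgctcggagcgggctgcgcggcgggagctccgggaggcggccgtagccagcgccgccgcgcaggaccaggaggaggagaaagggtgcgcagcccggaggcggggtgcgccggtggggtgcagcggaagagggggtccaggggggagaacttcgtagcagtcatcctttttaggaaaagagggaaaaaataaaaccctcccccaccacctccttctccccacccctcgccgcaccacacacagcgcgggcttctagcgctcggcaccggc
BAK1: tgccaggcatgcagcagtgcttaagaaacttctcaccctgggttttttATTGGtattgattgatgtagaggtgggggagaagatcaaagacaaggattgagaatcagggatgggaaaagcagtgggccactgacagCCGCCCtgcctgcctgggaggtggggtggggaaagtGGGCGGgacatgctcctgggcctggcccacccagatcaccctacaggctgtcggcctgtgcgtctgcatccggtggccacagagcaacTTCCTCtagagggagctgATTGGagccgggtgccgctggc
BID: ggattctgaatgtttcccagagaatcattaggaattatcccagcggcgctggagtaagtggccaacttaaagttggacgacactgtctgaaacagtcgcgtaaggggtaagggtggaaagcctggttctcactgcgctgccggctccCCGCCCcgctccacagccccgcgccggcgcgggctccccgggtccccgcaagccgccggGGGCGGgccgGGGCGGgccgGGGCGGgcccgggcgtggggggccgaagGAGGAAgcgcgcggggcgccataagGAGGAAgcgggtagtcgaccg
BAX: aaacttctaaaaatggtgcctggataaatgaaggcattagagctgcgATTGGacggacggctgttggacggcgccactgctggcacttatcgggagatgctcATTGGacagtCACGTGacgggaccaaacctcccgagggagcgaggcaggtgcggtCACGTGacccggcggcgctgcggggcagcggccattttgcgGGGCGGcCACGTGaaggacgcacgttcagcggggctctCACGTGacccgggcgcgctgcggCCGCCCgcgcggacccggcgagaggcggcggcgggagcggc

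The motifs searched were the cyclic AMP response element TGACGTCA and its core TGACGT, which lies within it, the C/EBP-ATF composite TGATGNAA, the E-box CACGTG, the GC box GGGCGG, the CCAAT box CCAAT, the TATA box TATAAA, the E2F site TTTCCCGC, the PU.1 site GAGGAA, and a kappaB site of NF-kappaB. The PMAIP1 promoter held 4 GC boxes and 1 TGACGT core, a core present in 7.98% of the 35116 promoters in the table. The BID promoter also held 4 GC boxes, along with 2 PU.1 sites. The BAK1 promoter held 2 GC boxes, 2 CCAAT boxes and 1 PU.1 site. The BAX promoter held 4 E-boxes, a motif that 7.26% of promoters hold at least once, with 2 GC boxes and 2 CCAAT boxes. None of the 10 motifs is spelled in the BCL2 window. That window lies wholly inside the deposited BCL2 gene, which runs from 63123346 to 63320128 on the minus strand. Sequence before the 5′ end of the deposited BCL2 gene was not searched. GC boxes were present in 45.0% of all promoters, CCAAT boxes in 34.6%, PU.1 sites in 27.9%, TATA boxes in 11.5%, the C/EBP-ATF composite in 3.62%, the kappaB site in 1.91%, the full cyclic AMP response element in 1.85% and the E2F site in 1.63%. GC content was 71.3% for PMAIP1, 70.7% for BCL2, 68.7% for BID, 67.3% for BAX and 58.7% for BAK1, against a median of 58.7% over all promoters. Any such match describes the letters of the window and is not evidence of binding.

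The most abundant member differed between the lines. BAX led in MV4-11, at 62.9 ± 7.42 FPKM in shCYTH4 libraries and 72.3 ± 8.19 FPKM in shControl libraries (SD, n = 3 each). MCL1 led in THP-1 by the mean, at 50.7, 51.8 and 56.6 FPKM in shCYTH4 libraries and 65.7, 44.7 and 53.8 FPKM in shControl libraries. In THP-1 shCYTH4 libraries BAK1 overlapped MCL1, at 50.4, 51.0 and 34.9 FPKM. In THP-1 shControl libraries the order was MCL1, BAK1, BAX and BID, with no overlap between neighbours, followed by BCL2, PMAIP1, BCL2L11 and BCL2L1, each of which overlapped its neighbour. In MV4-11 shControl libraries BAX stood apart at the top, while MCL1, BAK1 and BID overlapped each other in turn at 25.3 to 27.7 FPKM on average. BBC3 was ninth and BCL2A1 last in all 4 groups.

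**Figure D1:**
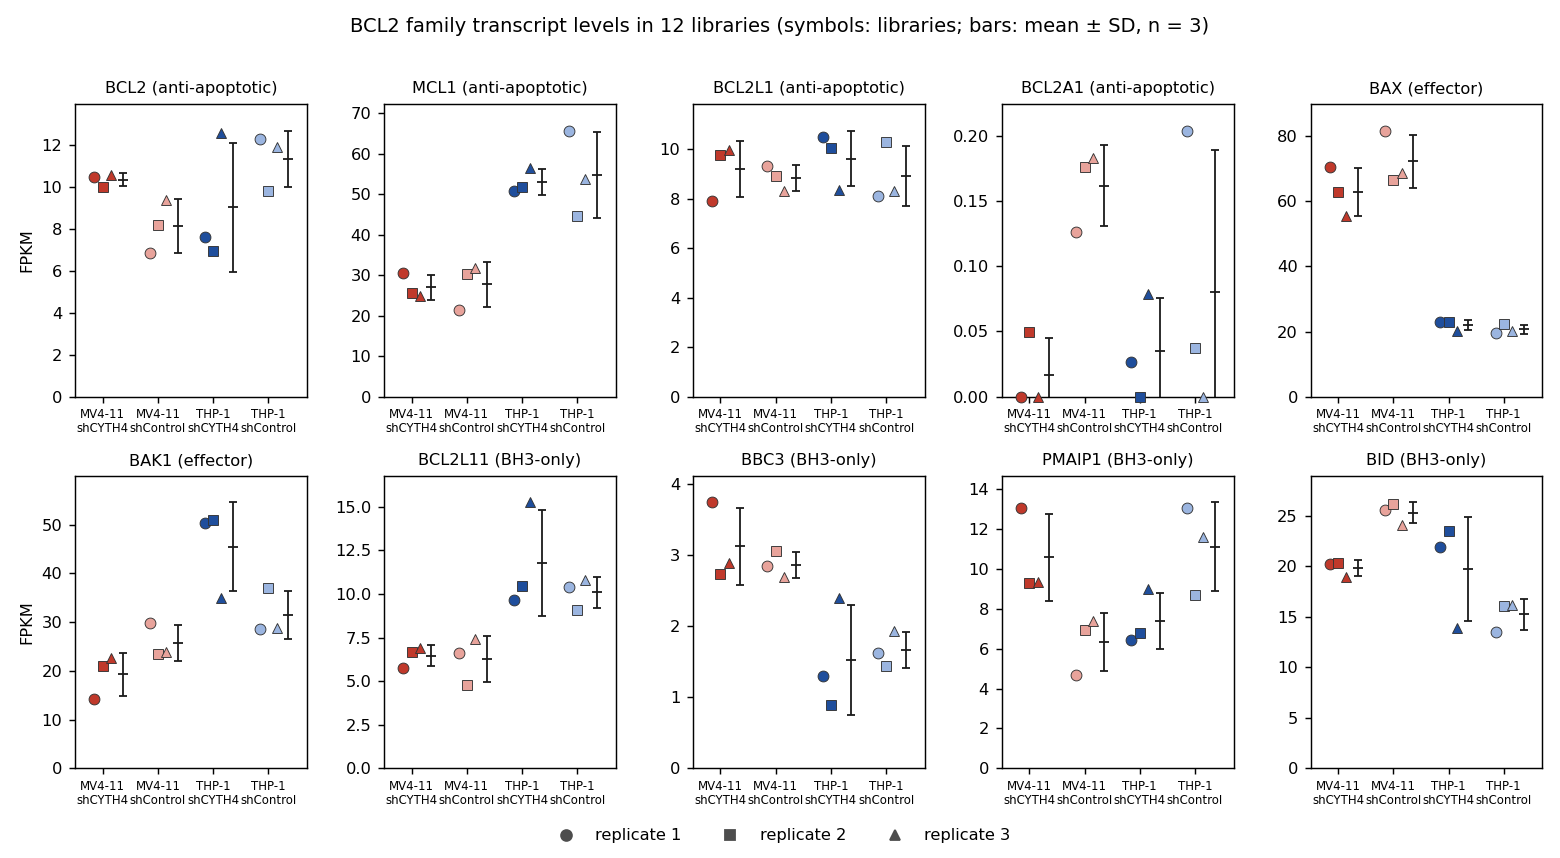
FPKM of the 10 BCL2 family members in each library (points), with the mean and SD of the 3 libraries of each group, drawn for MV4-11 shCYTH4, MV4-11 shControl, THP-1 shCYTH4 and THP-1 shControl on a separate linear axis for each gene. BAX is at 55.6 to 81.7 FPKM in MV4-11 libraries and 19.5 to 23.0 FPKM in THP-1 libraries.

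BCL2A1, an NF-kappaB-responsive anti-apoptotic member, was close to undetected. It stood at 0, 0.0494 and 0 FPKM in MV4-11 shCYTH4, against 0.126, 0.176 and 0.183 FPKM in MV4-11 shControl. In THP-1 it stood at 0.0268, 0 and 0.0790 FPKM in shCYTH4 libraries, against 0.204, 0.0370 and 0 FPKM in shControl libraries. The MV4-11 groups did not overlap, but no library held more than 17 counts, and no fold change is given.

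The control libraries of the lines were compared to show the family without the hairpin against CYTH4. MV4-11 had more BAX, BBC3 and BID, and less MCL1, PMAIP1, BCL2L11 and BCL2, than THP-1. In all, 7 of the 9 tested members were called, 3 higher and 4 lower in MV4-11, against 51.4% of all genes tested (24.6% higher and 26.7% lower). With so large a share of all genes differing between the lines, nothing is read from the member count. The same 7 members had FPKM values that did not overlap between the lines, against 60.6% of all genes.

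BAX showed the largest difference of the 9. It stood at 81.7, 66.6 and 68.7 FPKM in MV4-11 shControl, against 19.5, 22.3 and 20.1 FPKM in THP-1 shControl, 3.56-fold higher (95% interval 2.85 to 4.44, edgeR adjusted p = 6.04e-08). The other effector, BAK1, did not follow it. BAK1 stood at 29.9, 23.4 and 23.8 FPKM in MV4-11 shControl, against 28.5, 37.1 and 28.7 FPKM in THP-1 shControl, with overlapping groups and a log2 difference of -0.27 (95% interval -0.72 to 0.18, edgeR adjusted p = 0.309). BAX made up 73.8% ± 0.529 of the summed effector FPKM in MV4-11 shControl and 39.8% ± 1.94 in THP-1 shControl (SD, n = 3 each).

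Among anti-apoptotic members, MCL1, a short-lived protein that binds NOXA and BIM, stood at 21.4, 30.2 and 31.7 FPKM in MV4-11 shControl, against 65.7, 44.7 and 53.8 FPKM in THP-1 shControl. The groups did not overlap and the fold was 0.514 (95% interval 0.412 to 0.642, edgeR adjusted p = 6.64e-05). MCL1 overlaps ADAMTSL4 on the other strand, a gene at 4.25 FPKM on average over the 12 libraries, and the sources used here do not say whether counting used the strand. BCL2, the target of venetoclax, stood at 6.85, 8.17 and 9.38 FPKM in MV4-11 shControl, against 12.3, 9.80 and 11.9 FPKM in THP-1 shControl, a log2 difference of -0.46 (95% interval -0.84 to -0.08, edgeR adjusted p = 0.0432). That call was lost with limma on log2(FPKM + 1) (adjusted p = 0.0545) or log2(FPKM + 0.1) (0.0557), without a filter (edgeR adjusted p = 0.106) and with a filter of 1 FPKM in 6 libraries (0.0505). It was also lost without MV4-11 shControl replicate 1 (edgeR adjusted p = 0.142) or 2 (0.0942), THP-1 shControl replicate 1 (0.111) or 3 (0.111), or MV4-11 shCYTH4 replicate 2 (0.0540) or 3 (0.0525). BCL2L1 differed by 0.01 on the log2 scale, with an interval of -0.35 to 0.36.

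The BH3-only members split. BID, which caspase-8 cleaves to link death receptors to mitochondria, stood at 25.6, 26.1 and 24.2 FPKM in MV4-11 shControl, against 13.5, 16.1 and 16.2 FPKM in THP-1 shControl (log2 difference 0.75, SE 0.18, edgeR adjusted p = 0.00232). PUMA, a protein that binds all the main anti-apoptotic members, is encoded by BBC3, which stood at 2.84, 3.05 and 2.69 FPKM in MV4-11 shControl, against 1.62, 1.44 and 1.93 FPKM in THP-1 shControl (log2 difference 0.81, SE 0.28, edgeR adjusted p = 0.0241). The BBC3 call was lost without MV4-11 shControl replicate 1 (edgeR adjusted p = 0.0535) or 2 (0.0617) or THP-1 shControl replicate 1 (0.0764) or 2 (0.0781).

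The other BH3-only pair was lower in MV4-11. NOXA binds chiefly MCL1, and its gene PMAIP1 stood at 4.70, 6.92 and 7.38 FPKM in MV4-11 shControl, against 13.0, 8.70 and 11.6 FPKM in THP-1 shControl (log2 difference -0.79, SE 0.20, edgeR adjusted p = 0.00366). BCL2L11, whose product BIM binds all the main anti-apoptotic members and activates BAX, stood at 6.61, 4.79 and 7.40 FPKM in MV4-11 shControl, against 10.4, 9.11 and 10.8 FPKM in THP-1 shControl (log2 difference -0.67, SE 0.19, edgeR adjusted p = 0.00696). In each of these 4 BH3-only genes the lines did not overlap.

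**Figure D2:**
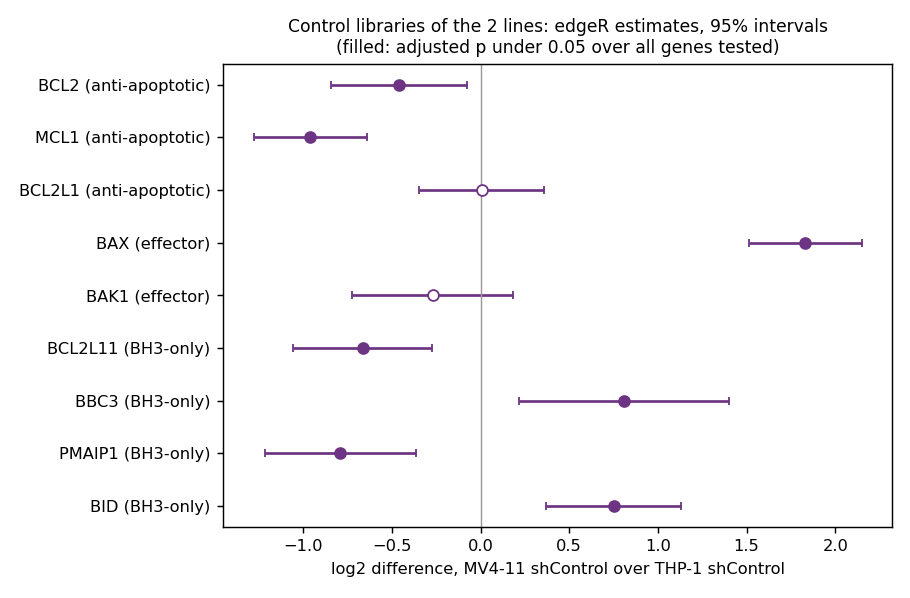
Log2 difference of MV4-11 shControl over THP-1 shControl for the 9 tested members, with 95% intervals from edgeR; filled points have an adjusted p under 0.05. BAX lies at 1.83 and MCL1 at -0.96, while the intervals of BCL2L1 and BAK1 span 0.

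In MV4-11, no member was called between libraries labelled shCYTH4 and shControl, against 1.13% of all genes called. By unadjusted p under 0.05, 3 of 9 members passed (PMAIP1, BAK1 and BID), against 13.9% of all genes, and DESeq2 called 1 (PMAIP1, adjusted p = 0.0412). The FPKM values of 4 of the 9 did not overlap between the groups, BCL2 and PMAIP1 lying above and BAK1 and BID below, against 24.8% of all genes (16.0% above and 8.84% below). The median log2 change of the 9 was -0.03, beside 7.5e-04 over all genes tested.

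PMAIP1 had the largest estimate in MV4-11. It stood at 13.1, 9.29 and 9.36 FPKM in shCYTH4 libraries, against 4.70, 6.92 and 7.38 FPKM in shControl libraries, a log2 change of 0.67 (95% interval 0.24 to 1.09, edgeR adjusted p = 0.126). Every shCYTH4 library lay above every shControl library, with replicate 1 highest among the shCYTH4 libraries and replicate 1 lowest among the controls. BAK1 showed the reverse order, at 14.2, 21.0 and 22.6 FPKM in MV4-11 shCYTH4, against 29.9, 23.4 and 23.8 FPKM in MV4-11 shControl (log2 change -0.50, 95% interval -0.95 to -0.04, edgeR adjusted p = 0.313). Here shCYTH4 replicate 1 was lowest and shControl replicate 1 highest. Without shCYTH4 replicate 1 the log2 change was 0.50 for PMAIP1 (edgeR adjusted p = 0.335) and -0.31 for BAK1 (0.613), and without shControl replicate 1 it was 0.52 for PMAIP1 (0.377) and -0.34 for BAK1 (0.693).

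BID was the most even of the members that stood apart in MV4-11, at 20.3, 20.3 and 19.0 FPKM in shCYTH4 libraries, against 25.6, 26.1 and 24.2 FPKM in shControl libraries (log2 change -0.43, 95% interval -0.80 to -0.05, edgeR adjusted p = 0.293). BCL2 stood at 10.5, 10.01 and 10.5 FPKM in MV4-11 shCYTH4, against 6.85, 8.17 and 9.38 FPKM in MV4-11 shControl (log2 change 0.28, 95% interval -0.11 to 0.66, edgeR adjusted p = 0.508). For both genes the shCYTH4 libraries were close together and outside the control range. Without shCYTH4 replicate 1 or shControl replicate 1 the log2 change was -0.43 or -0.39 for BID and 0.28 or 0.20 for BCL2, none of them called. BAX stood at 70.4, 62.8 and 55.6 FPKM in MV4-11 shCYTH4, against 81.7, 66.6 and 68.7 FPKM in MV4-11 shControl, with overlapping groups (log2 change -0.28, 95% interval -0.59 to 0.03, edgeR adjusted p = 0.402).

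The estimates of MCL1, BCL2L1, BCL2L11 and BBC3 in MV4-11 lay between -0.11 and 0.04 on the log2 scale. Their intervals bound a change to -0.43 to 0.21 for MCL1, -0.37 to 0.33 for BCL2L1, -0.43 to 0.36 for BCL2L11 and -0.54 to 0.63 for BBC3.

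In THP-1, where the CYTH4 level was lower, no member was called either, against 1.65% of all genes. By unadjusted p under 0.05, 2 of 9 passed (PMAIP1 and BCL2), against 16.0% of all genes, and DESeq2 called 1 (PMAIP1, adjusted p = 0.0272), as did limma on quantile-normalized values (adjusted p = 0.0414). In FPKM, none of the 9 members had groups that did not overlap, against 23.7% of all genes. The median log2 change of the 9 was -0.02, beside -0.0087 over all genes tested.

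PMAIP1 again had the largest estimate, now below 0. It stood at 6.41, 6.78 and 8.97 FPKM in THP-1 shCYTH4, against 13.0, 8.70 and 11.6 FPKM in THP-1 shControl, a log2 change of -0.70 (95% interval -1.12 to -0.27, edgeR adjusted p = 0.0908). The groups overlapped only through shCYTH4 replicate 3 and shControl replicate 2. BCL2 stood at 7.61, 6.92 and 12.6 FPKM in THP-1 shCYTH4, against 12.3, 9.80 and 11.9 FPKM in THP-1 shControl (log2 change -0.44, 95% interval -0.82 to -0.06, edgeR adjusted p = 0.239). In FPKM the BCL2 value of shCYTH4 replicate 3 lay above all 3 controls, and replicates 1 and 2 lay below them. In log2 CPM replicates 1 and 2 were again below, but replicate 3 lay within the control range (0.02 against -0.14 to 0.07).

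The same library broke the pattern in BAK1 and BID. BAK1 stood at 50.4, 51.0 and 34.9 FPKM in THP-1 shCYTH4, against 28.5, 37.1 and 28.7 FPKM in THP-1 shControl (log2 change 0.41, 95% interval -0.04 to 0.87, edgeR adjusted p = 0.366). BID stood at 21.9, 23.5 and 13.9 FPKM in THP-1 shCYTH4, against 13.5, 16.1 and 16.2 FPKM in THP-1 shControl (log2 change 0.26, 95% interval -0.11 to 0.64, edgeR adjusted p = 0.521). In both genes the FPKM of shCYTH4 replicates 1 and 2 lay above every control and that of replicate 3 within the control range. In log2 CPM the placement was the same, except that BID in replicate 3 lay just below the lowest control (-0.27 against -0.23).

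BCL2L11 and BBC3 were highest in replicate 3. BCL2L11 stood at 9.66, 10.4 and 15.3 FPKM in THP-1 shCYTH4, against 10.4, 9.11 and 10.8 FPKM in THP-1 shControl, and BBC3 at 1.29, 0.883 and 2.39 FPKM in THP-1 shCYTH4, against 1.62, 1.44 and 1.93 FPKM in THP-1 shControl. Their log2 changes were 0.11 (95% interval -0.28 to 0.50) and -0.24 (-0.84 to 0.35). MCL1 (-0.15, -0.47 to 0.17), BCL2L1 (-0.01, -0.36 to 0.35) and BAX (-0.02, -0.33 to 0.29) had estimates near 0 in THP-1, all overlapping.

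**Figure D3:**
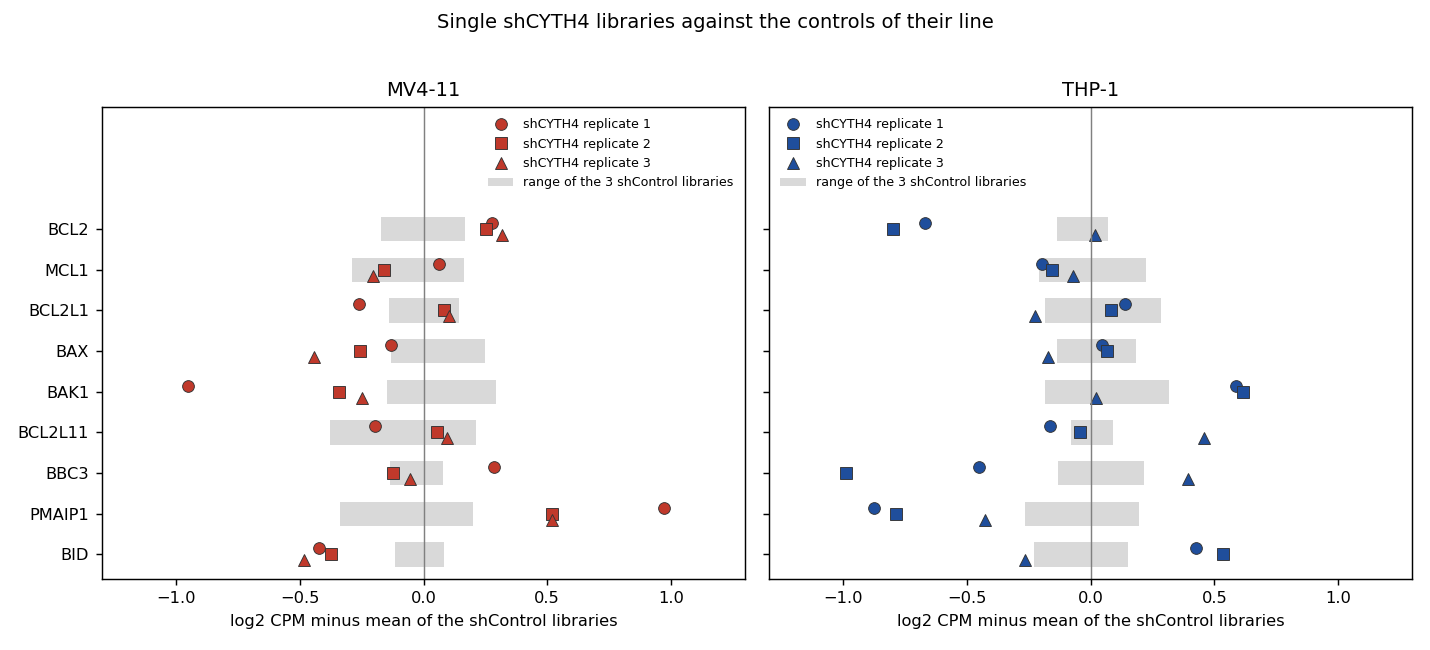
Log2 CPM (counts scaled to library size) of each shCYTH4 library minus the mean of the 3 shControl libraries of its line, for the 9 tested members in MV4-11 (left) and THP-1 (right); grey bars span the shControl libraries. In THP-1, replicate 3 lies at 0.02 for BCL2, 0.02 for BAK1 and -0.27 for BID, away from replicates 1 and 2.

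THP-1 shCYTH4 replicate 3 stood apart from its group in some of the members and in the stress-response genes ATF4 and DDIT3. It did not stand apart in CYTH4, which was 15.7 FPKM there. ATF4, a transcription factor of the integrated stress response, stood at 161, 142 and 294 FPKM in THP-1 shCYTH4, against 205, 193 and 191 FPKM in THP-1 shControl. DDIT3, which encodes CHOP, stood at 16.5, 14.2 and 39.5 FPKM in THP-1 shCYTH4, against 13.1, 9.75 and 13.6 FPKM in THP-1 shControl. Replicate 3 was the highest of the 6 THP-1 libraries in both genes. ATF3, another stress factor, stood at 1.65, 1.11 and 1.78 FPKM in THP-1 shCYTH4, with replicate 3 only a little above replicate 1. The part of these factors in the member values was not tested.

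Without that library, 3 members were called in THP-1, against 6.76% of all genes (835 genes in place of 204). BCL2 fell by 0.73 on the log2 scale (edgeR adjusted p = 0.00647), PMAIP1 fell by 0.83 (edgeR adjusted p = 0.0313) and BID rose by 0.48 (edgeR adjusted p = 0.0449). BAK1 (0.59, edgeR adjusted p = 0.106) and BBC3 (-0.70, edgeR adjusted p = 0.0868) were not called. The remaining shCYTH4 libraries then number 2, and their spread is estimated together with the other groups.

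**Figure D4:**
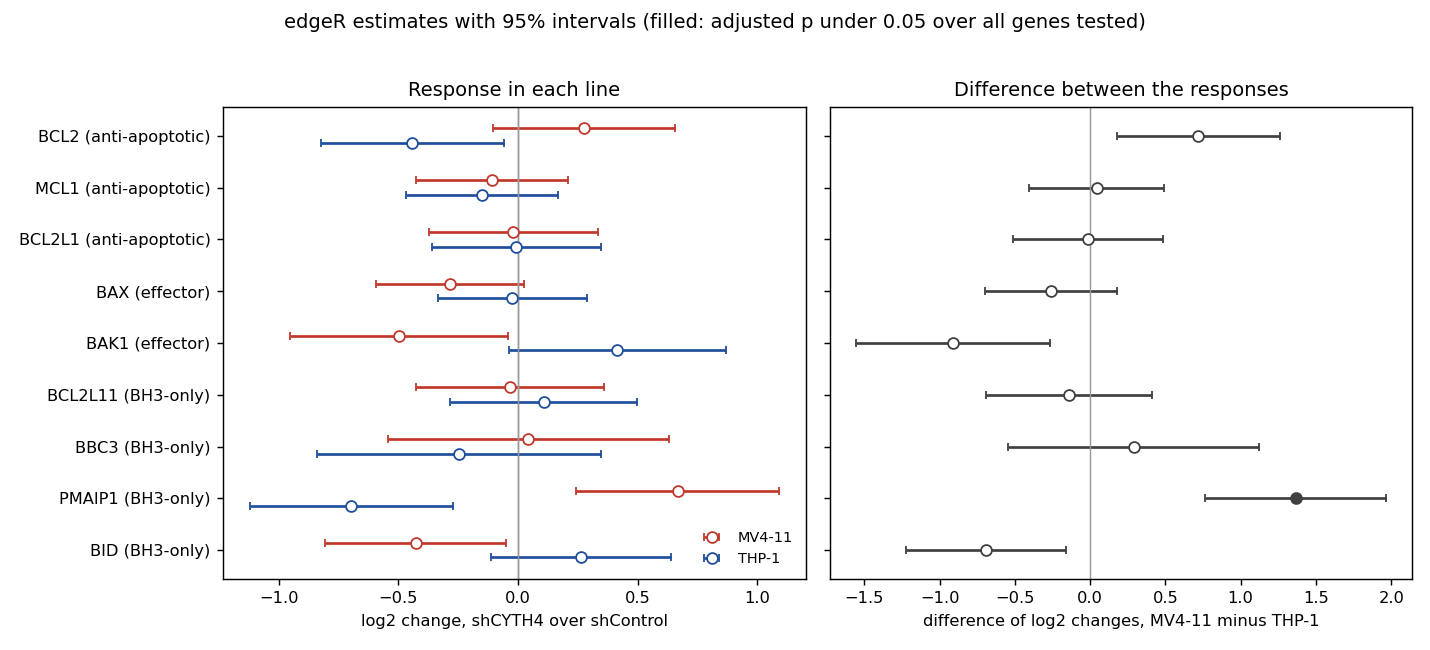
Log2 change, shCYTH4 over shControl, of the 9 tested members in MV4-11 and in THP-1 (left) and the MV4-11 change minus the THP-1 change (right), with 95% intervals from edgeR and filled points at an adjusted p under 0.05. PMAIP1 lies at 0.67 in MV4-11 and -0.70 in THP-1, and BCL2, BAK1 and BID also have estimates of opposite sign in the lines.

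The response in MV4-11 minus that in THP-1 was tested as an interaction. PMAIP1 was the 1 member of 9 called, against 0.866% of all genes, and 0.413% called in its direction. Its difference was 1.36 on the log2 scale (SE 0.28, 95% interval 0.76 to 1.96, edgeR adjusted p = 0.0356). The call was narrow. It was lost when any 1 of 10 libraries was left out, with edgeR adjusted p of 0.0597, 0.0609 and 0.0638 without MV4-11 shCYTH4 replicate 1, 2 and 3, and 0.0549 and 0.0594 without MV4-11 shControl replicate 1 and 2. It was also lost without THP-1 shCYTH4 replicate 1 (0.116) or 2 (0.0965) and without THP-1 shControl replicate 1 (0.0869), 2 (0.0512) or 3 (0.0879). The estimate stayed between 1.20 and 1.52 in all 12 such fits.

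Opposite signs also appeared in BCL2, BAK1 and BID, which passed an unadjusted p under 0.05 in the interaction but were not called. With PMAIP1 they make 4 of 9 members under that unadjusted threshold, against 14.2% of all genes. The difference was 0.72 for BCL2 (95% interval 0.18 to 1.26, edgeR adjusted p = 0.206), -0.91 for BAK1 (-1.55 to -0.27, edgeR adjusted p = 0.176) and -0.69 for BID (-1.22 to -0.16, edgeR adjusted p = 0.218). Without THP-1 shCYTH4 replicate 3 all 4 were called, against 7.39% of all genes (913 genes in place of 107). The differences were then 1.52 for PMAIP1 (edgeR adjusted p = 0.00544), 1.02 for BCL2 (0.00423), -1.07 for BAK1 (0.0327) and -0.90 for BID (0.00806). Without MV4-11 shControl replicate 1 they were 0.64 for BCL2 (edgeR adjusted p = 0.309), -0.75 for BAK1 (0.289) and -0.65 for BID (0.294). Without MV4-11 shCYTH4 replicate 1 they were 0.72 for BCL2 (edgeR adjusted p = 0.227), -0.72 for BAK1 (0.240) and -0.69 for BID (0.240). No member was called in either of these fits. For BAX, MCL1, BCL2L1, BCL2L11 and BBC3 the interval of the difference spanned 0.

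PMAIP1 levels in the libraries labelled shCYTH4 of each line lay near those of the other line's controls. PMAIP1 averaged 10.6 ± 2.16 FPKM in MV4-11 shCYTH4 and 11.1 ± 2.22 FPKM in THP-1 shControl, and 7.39 ± 1.38 FPKM in THP-1 shCYTH4 and 6.33 ± 1.43 FPKM in MV4-11 shControl (SD, n = 3 each). BID averaged 19.9 ± 0.763 FPKM in MV4-11 shCYTH4 and 25.3 ± 1.03 FPKM in MV4-11 shControl, and 19.8 ± 5.14 FPKM in THP-1 shCYTH4 and 15.2 ± 1.53 FPKM in THP-1 shControl (SD, n = 3 each). These closeness statements are descriptions and have no test.

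Summed by class, the control libraries of the lines did not overlap in anti-apoptotic or effector transcripts and overlapped in BH3-only ones. Anti-apoptotic members summed to 44.9 ± 6.32 FPKM in MV4-11 shControl and 75.1 ± 10.8 FPKM in THP-1 shControl, and effectors to 98.0 ± 11.8 FPKM in MV4-11 shControl and 52.1 ± 6.35 FPKM in THP-1 shControl (SD, n = 3 each). BH3-only members summed to 40.8 ± 0.928 FPKM in MV4-11 shControl and 38.1 ± 2.61 FPKM in THP-1 shControl. MCL1 made up 61.4% of the anti-apoptotic sum in MV4-11 shControl and 72.6% in THP-1 shControl, and BAX was the larger part of the effector sum in MV4-11. The sums have no test.

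With shCYTH4, the effector sum was 82.2 ± 3.52 FPKM in MV4-11 shCYTH4 and 98.0 ± 11.8 FPKM in MV4-11 shControl, and 67.4 ± 10.7 FPKM in THP-1 shCYTH4 and 52.1 ± 6.35 FPKM in THP-1 shControl (SD, n = 3 each). The ratio of the anti-apoptotic to the effector sum was 0.579, 0.541 and 0.581 in MV4-11 shCYTH4, against 0.338, 0.527 and 0.535 in MV4-11 shControl. All 3 shCYTH4 libraries lay above the controls, replicates 2 and 3 of the controls by little. The ratio was 0.940, 0.930 and 1.41 in THP-1 shCYTH4, against 1.80, 1.09 and 1.52 in THP-1 shControl, and the groups overlapped through shCYTH4 replicate 3. The anti-apoptotic sum was 46.6 ± 2.10 FPKM in MV4-11 shCYTH4 and 44.9 ± 6.32 FPKM in MV4-11 shControl, and 71.7 ± 5.08 FPKM in THP-1 shCYTH4 and 75.1 ± 10.8 FPKM in THP-1 shControl. The BH3-only sum ran from 38.1 to 42.8 FPKM in MV4-11 shCYTH4 and from 39.3 to 41.6 FPKM in THP-1 shCYTH4, against 39.8 to 41.6 FPKM in MV4-11 shControl and 35.3 to 40.5 FPKM in THP-1 shControl.

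**Figure D5:**
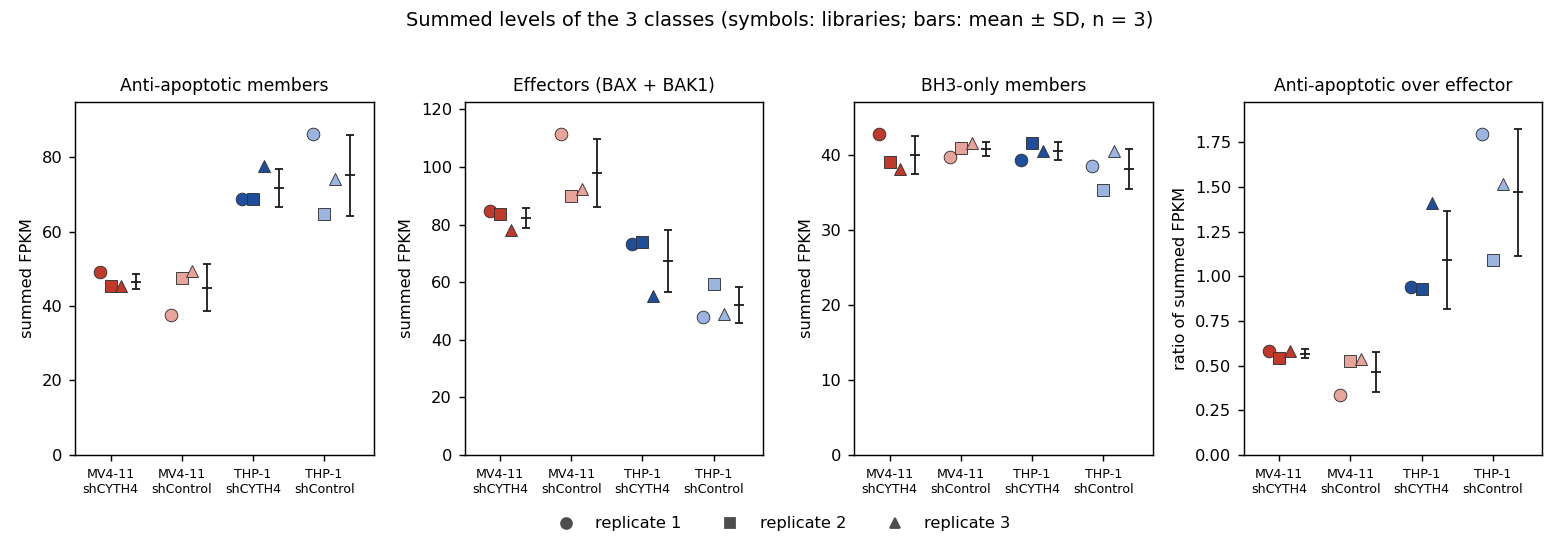
Summed FPKM of the anti-apoptotic, effector and BH3-only members and the ratio of the anti-apoptotic to the effector sum, per library (points) with the mean and SD of each group of 3. The ratio lies at 0.338 to 0.581 in MV4-11 libraries and at 0.930 to 1.80 in THP-1 libraries.

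Some members varied together within lines and others did not. Over the 12 libraries, with the mean of each line subtracted from log2 CPM, PMAIP1 and BAK1 had a Pearson correlation of -0.94, BCL2 and BID of -0.90, PMAIP1 and BCL2 of 0.84, and BAK1 and BID of 0.79. By contrast BCL2L11 had correlations of -0.40 to 0.34 with the other members, with 0.0019 for BAK1 and -0.07 for PMAIP1. These points share the hairpin groups and the libraries that stood apart, so the correlations are a description only. By the same measure the gene nearest to BCL2 was FLT3, a receptor tyrosine kinase of leukemic blasts, at 0.97. PMAIP1 was nearest to CYP51A1, a cholesterol synthesis enzyme, at 0.96, and to SNX5, a sorting nexin, at 0.95. BID was nearest to POLDIP2 (0.98), BAK1 to RHOBTB2 (0.98), BCL2L1 to G6PC3 (0.97), BAX to MPG (0.94), MCL1 to MARCHF7 (0.92), BBC3 to the pseudogene HMGN1P36 (0.90) and BCL2L11 to ERN1, an endoplasmic reticulum stress sensor (0.88).

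Other genes of the pathway were read from lists of relatives and partners. Across 7 lists, median log2 changes with shCYTH4 ran from -0.11 (further BCL2 relatives) to 0.19 (caspases) in MV4-11 and from -0.09 (transcription factors) to 0.17 (death receptor genes) in THP-1, beside the medians over all genes given above. Of 9 tested further BCL2 relatives, none was called with shCYTH4 in either line. Between the control lines 4 were higher and 2 lower in MV4-11, against 24.6% and 26.7% of all genes, with BCL2L10, an anti-apoptotic relative, higher by 6.21 on the log2 scale (edgeR adjusted p = 5.49e-09), BMF, a BH3-only gene, higher by 1.92 (3.6e-06) and BNIP3, a mitophagy receptor, lower with a log2 difference of -1.47 (5.74e-06). BCL2L10 stood at 6.37, 3.05 and 3.64 FPKM in MV4-11 shCYTH4, against 8.74, 12.1 and 9.69 FPKM in MV4-11 shControl, with no overlap, and averaged 0.0553 FPKM in THP-1 shCYTH4 and 0.137 FPKM in THP-1 shControl.

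The apoptosome and caspase list had 9 tested genes and none called with shCYTH4 in either line, and 2 higher and 2 lower between the control lines, against 51.4% of all genes called, with log2 differences of 1.42 for the executioner CASP6 and -1.14 for CASP8, the initiator that cleaves BID. Caspase inhibitors and released mitochondrial proteins, with 7 tested genes, had none called with shCYTH4 and 4 higher and 1 lower between lines, against 51.4% of all genes called, among them AIFM1 (0.88) and ENDOG (1.13), both released from mitochondria, and the inhibitor BIRC2 (-0.66). Of 11 tested death receptor genes, 8 were higher and 1 lower in MV4-11 shControl than in THP-1 shControl, against 24.6% and 26.7% of all genes, with the decoy receptor TNFRSF10C higher by 3.39 and the TRAIL receptors TNFRSF10B by 2.16 and TNFRSF10D, a decoy, by 2.14. In that list TNF, the ligand of the TNF receptors, fell in THP-1 shCYTH4 to 2.80, 4.62 and 3.20 FPKM, against 8.20, 10.1 and 5.10 FPKM in THP-1 shControl (log2 change -1.25, edgeR adjusted p = 0.0209). In MV4-11 TNF stood at 15.1, 13.9 and 14.6 FPKM in shCYTH4 libraries, against 20.7, 18.7 and 20.0 FPKM in shControl libraries. Those groups did not overlap either, and the MV4-11 change was not called.

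Mitochondrial channel and shape genes (8 tested) had none called with shCYTH4, and 4 higher and 1 lower between lines, against the same 51.4%, among them the channels VDAC3 (0.68) and VDAC2 (0.48) and the fission factor DNM1L (-0.80). MCL1 turnover genes (6 tested) had none called with shCYTH4, and between lines the deubiquitinases USP13 (-0.99) and USP9X (-0.82) were both lower in MV4-11, where 26.7% of all genes were lower. Of 18 tested transcription factors known to act on members, 4 were higher and 7 lower between lines, against 24.6% and 26.7% of all genes, with log2 differences of -3.75 for JUN and 1.37 for MYC, and 1 was called with shCYTH4. ATF3, a stress-induced factor, rose in MV4-11 shCYTH4 to 1.15, 1.59 and 1.55 FPKM, against 0.629, 0.437 and 0.735 FPKM in MV4-11 shControl (log2 change 1.18, edgeR adjusted p = 0.0397). In THP-1 ATF3 stood at 1.65, 1.11 and 1.78 FPKM in shCYTH4 libraries, against 0.863, 0.999 and 0.881 FPKM in shControl libraries. The THP-1 groups did not overlap either, and that change was not called. ATF4 stood at 284, 252 and 235 FPKM in MV4-11 shCYTH4, against 176, 147 and 172 FPKM in MV4-11 shControl, and DDIT3 at 9.88, 7.85 and 6.71 FPKM, against 3.13, 3.12 and 3.83 FPKM, in each case with no overlap and no call. No gene of these lists was called in the difference between the responses.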

How the data were processed

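Poly(A) RNA of 12 libraries was sequenced in paired reads after strand-marking library preparation, per the labels' protocols. The authors deposited 1 table with estimated counts and FPKM per gene in 24 value columns. Column codes were read as the shControl and shCYTH4 labels. The submitters' processing notes name fastp, StringTie and edgeR, without versions, and no source used here gives the aligner, genome build or annotation. All 10 members overlap their GRCh38 positions in GENCODE 29, and 5 have the same start and end there. MCL1 runs from 150560895 to 150579610 as deposited and from 150574551 to 150579738 in GENCODE 29. The part of that longer span in the MCL1 levels was not tested. Of the deposited counts between 1 and 40, 31.2% are divisible by 4, so 1 count is not 1 fragment and counting intervals were not computed.

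The main test was edgeR 4.0.16 (R 4.3.3; TMM scaling, robust quasi-likelihood fit, 4 group means, 8 residual degrees of freedom) on the deposited whole-number counts of genes with 1 FPKM or more in 3 or more libraries, Benjamini-Hochberg adjusted over all genes tested. limma 3.58.1, DESeq2 1.42.0, other scalings and filters, and leaving out each library were alternatives. Scripts were tested on simulated data. Named genes were all members, CYTH4, called genes of the pathway lists (up to 3 per comparison by smallest p) and the nearest genes by correlation (up to 2 per member); BCL2L10, ATF4 and DDIT3 values were added after they were seen. The members and lists were chosen with earlier results of these data known. Of the listed genes, 8 were not analysed here. The main test did not pair libraries by replicate number. Results that involve some genes, and 1 gene list, are not reported here.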

Additional observations from a re-analysis of the deposited data

Results flagged for a closer look

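The PMAIP1 responses of the lines to shCYTH4 were called different by an interaction term. The MV4-11 log2 change minus the THP-1 log2 change was 1.36 (edgeR adjusted p = 0.0356), from 0.67 in MV4-11 and -0.70 in THP-1, where neither change was called. The call was lost in 10 of the 12 fits that left out 1 library (edgeR adjusted p 0.0512 to 0.116) and with limma on log2(FPKM + 0.1) (adjusted p = 0.0553), and the libraries labelled shCYTH4 had no lower CYTH4 in MV4-11. Groups of 3 libraries are too small for a test of single outlying libraries.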

How the results depend on the processing

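Of 870 single-gene values under alternatives, 770 kept their direction and side of the threshold, 37 lost the call, 10 gained it and 53 changed sign, and the causes were not tested. With DESeq2, 451 genes (1 member, PMAIP1) were called in MV4-11, 608 (1 member, PMAIP1) in THP-1 and 436 in the difference. limma on log2(FPKM + 1) called 477 genes in THP-1, 329 higher and 148 lower beside 75 and 129, and 162 in the difference; on log2(FPKM + 0.1) THP-1 had 163 higher and 89 lower, and 0 members were called in the difference (PMAIP1 adjusted p = 0.0553). Quantile normalization called 1 member in THP-1 (PMAIP1). Without a filter the difference had 162 genes, with FPKM of at least 1 in 6 libraries THP-1 had 126, and with its own groups alone 78. The replicate block called 23 genes in THP-1, 47 in the difference and 0 members there (PMAIP1 edgeR adjusted p = 0.111). Same-numbered libraries correlated at -0.21 to 0.09 in their deviations, and 1 of 6 shCYTH4 libraries correlated best with its own number. No strong effect shared by number was seen, but such correlations cannot show whether the libraries were prepared in pairs. Leaving out each library gave 74 to 398 genes in MV4-11, 15 to 835 in THP-1 with 0 to 3 members, and 32 to 913 in the difference with 0 to 4 members.

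Sign changes concerned main estimates between -0.14 and 0.11, apart from BBC3 in THP-1 (-0.24), which was 0.033 without THP-1 shCYTH4 replicate 2. In MV4-11, BCL2L11 was 0.011 with quantile normalization and 0.051 and 0.060 with limma on log2(FPKM + 1) and log2(FPKM + 0.1), BBC3 was -0.046 with quantile normalization, and BCL2L1 was 0.048 and 0.052 with limma on FPKM. In THP-1, BCL2L1 was 0.0035 with RLE factors and 0.0035 with DESeq2, 0.10 and 0.11 with limma on FPKM, 0.015 without a filter, 0.021 with the 6-library filter and 0.018 with its own groups, and BAX was 0.088 and 0.091 with limma, 0.0035 with the 6-library filter and 0.0010 with its own groups. The BCL2L1 difference was 0.019 with quantile normalization, and its line contrast -0.0044 and -0.0043 with limma on FPKM. Leaving out each library, MV4-11 values ran from -0.20 to 0.092 (BCL2L11), -0.092 to 0.14 (BBC3), -0.071 to 0.089 (BCL2L1) and -0.091 to 0.16 (CYTH4). THP-1 values ran from -0.097 to 0.15 (BCL2L1), -0.089 to 0.073 (BAX), -0.70 to 0.033 (BBC3) and -0.095 to 0.24 (BCL2L11). Differences ran from -0.17 to 0.096 (BCL2L1), -0.088 to 0.14 (MCL1) and -0.31 to 0.078 (BCL2L11), and the BCL2L1 line contrast from -0.084 to 0.16.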
